A study of Saccharomyces cerevisiae with 9 samples.

Results

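The leaders of 6 yeast heat shock and chaperone genes were described here from a pool of synthetic RNAs that carry the 5′ ends of Saccharomyces cerevisiae messages. The genes were HSP104 (YLL026W), HSP26 (YBR072W), HSP12 (YFL014W), HSP42 (YDR171W), SSA1 (YAL005C) and HSC82 (YMR186W). They were taken by locus tag from the RNAs whose name holds a locus tag and a number alone, which are the wild-type leaders. The rule found 8 RNAs, 1 for each gene except HSP12 and HSP42, which had 2 each, out of 4384 wild-type RNAs of 2371 genes. Every RNA of the 6 genes in the table was a wild-type leader.

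The study probed the pool with dimethyl sulphate (DMS), which methylates unpaired A and C, in 9 libraries. All RNA was transcribed with T7 RNA polymerase, heated to 95 °C for 2 min and quenched with beta-mercaptoethanol at the end. In 3 libraries DMS was given to the denatured RNA, in 3 the RNA was refolded and held at 30 °C for 2 min with DMS, and in 3 it was refolded and held in the same way without DMS. The pool is RNA made and folded in vitro, without ribosomes or chaperones, so it models the sequence of a message and not its state in a heated cell. The 6 value columns of the deposited table name a replicate and no condition, and each replicate number belongs to 3 libraries, so they were not used. DMS reactivity and sequencing depth were not analysed here. The values below describe the deposited sequences and structures predicted from them, which have no replicate error, and no test was run.

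The heat shock response of yeast is a rapid rise of chaperone messages, driven by the transcription factor Hsf1 and, for many stress genes, by Msn2 and Msn4. To be translated, a message is bound near its cap by a complex of the small ribosomal subunit and initiation factors, among them eIF3, which then scans the leader to the start codon. Stable stems in a leader hinder scanning in yeast, and A-rich leaders tend to be weakly structured. The 6 genes cover several chaperone classes. Hsp104 is a disaggregase that pulls proteins out of aggregates, Hsp26 and Hsp42 are small heat shock proteins that hold unfolded proteins, and Hsp12 is a small membrane-associated stress protein. Ssa1 is a cytosolic Hsp70, and Hsc82 is the constitutive Hsp90.

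The surroundings of the start codon are the part of a leader that the scanning complex must read, and they differed in base content among the 6 genes. Each line gives 15 bases of the longest leader, the start codon and the next 6 bases, 5′ to 3′ in the DNA letters of the table, with the start codon in capitals.
HSP104: aaatatacagaatatATGaacgac
HSP26: actaaacaaattaacATGtcattt
HSP12: aaactaaatacaacaATGtctgac
HSP42: taccaagccgaagcaATGagtttt
SSA1: taaataacagataatATGtcaaaa
HSC82: gaatcattctgaaatATGgctggt
Of the 15 bases before the start codon, 10 were A in HSP12, 9 each in HSP104, HSP26 and SSA1, and 6 each in HSP42 and HSC82. At position -3, where A is the favoured base of yeast start codons, A was present in HSP26, HSP12, SSA1 and HSC82. HSP104 had U there and HSP42 had G. This share, 4 of 6, was near the background, since A stood there in 61.6% of the 2273 genes whose leaders reached 10 nt. No leader of the 6 genes held a lower-case agt, the letters that stand in the pool for an upstream ATG, against 15.6% of the genes.

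All 6 leaders were richer in A than the median gene, and HSP42 was the least so. The A content was 58.2% in HSP104, 53.4% in HSP26 and 59.7% in SSA1. HSC82 had 53.8%, and the leaders of 37 and 58 nt of HSP12 had 70.3% and 55.2%. The HSP42 leaders of 72 and 85 nt had 38.9% and 41.2%, close to the median of 38.8% over all genes. Averaged over the leaders of a gene, the median of the 6 genes was 56.0% and their mean 54.6% ± 7.98 (SD, n = 6 genes). Taking the longest leader of each gene, 5 of 6 reached 50% A, against 14.4% of all genes, and HSP42 was the exception. Of the other 2267 genes, 97.0% had less A than SSA1 and 61.2% less than HSP42. The same 5 genes fell under 30% GC, against 22.3% of all genes. G was below the median of all genes in each of the 6, whereas C differed between them. Averaged per gene, the median G content of the 6 was 9.38% against 17.1% for all genes. The median C content was 17.8% against 17.5%, with 3 of 6 above it. HSC82 and SSA1 were low in both, with 7.69% and 11.3% C and with 11.5% and 9.68% G. HSC82 had 19.2% GC and SSA1 21.0%, whereas the HSP42 leader of 85 nt had 37.6%. The 58-nt leader of HSP12 held 3.45% G, and its 37-nt leader held none. These genes were chosen with earlier results on the same table known, so their high place in A content is a description and not independent support for a trait of such genes.

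The A bases stood in runs in 5 of the genes. A run of at least 5 A (AAAAA, searched on the RNA strand) was found in the longest leader of every gene but HSP42, against 24.6% of all genes. Among the 1478 genes whose longest leader was 26 to 85 nt, the range of the 6 genes, the share was 23.9%. The 5 genes with a run were the same 5 that reached 50% A, and the share among genes of like A content was not computed. The longest run was 8 A in HSP12, which began 20 nt before the start codon, and 49 of the 2267 other genes had a longer one. It was 6 A in HSP104 and HSP26, 5 A in SSA1 and HSC82 and 3 A in HSP42. The run lay 43 nt before the start codon in HSP104, 33 nt in HSP26, 26 nt in SSA1 and 22 nt in HSC82, so it had no common place. The motif UUUUU was found in none of the 6 leaders and in 13.0% of all genes. The repeat ACACA was found in HSP42 alone, beginning 31 nt before the start codon, and in 11.2% of all genes. The repeat CAACAA was found in none and in 4.44% of all genes. A match, or its absence, describes these letters only.

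The leaders ran from short in HSC82 to long in HSP26 and HSP42. HSC82 had 26 nt, HSP104 55 nt, SSA1 62 nt and HSP26 73 nt. HSP12 had 37 and 58 nt, and HSP42 had 72 and 85 nt. Averaged per gene, HSP26 and HSP42 exceeded the upper quartile of the other genes, 63.4 nt, and HSC82 lay under their lower quartile, 28.2 nt. The median over the 6 genes, with the leaders of a gene averaged, was 58.5 nt against 42.3 nt for all genes, and 5 of 6 lay above it. The size of this difference depended on how genes with several leaders were treated, 8 nt with the longest and 27.5 nt with the shortest leader of each gene.

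**Figure D1:**
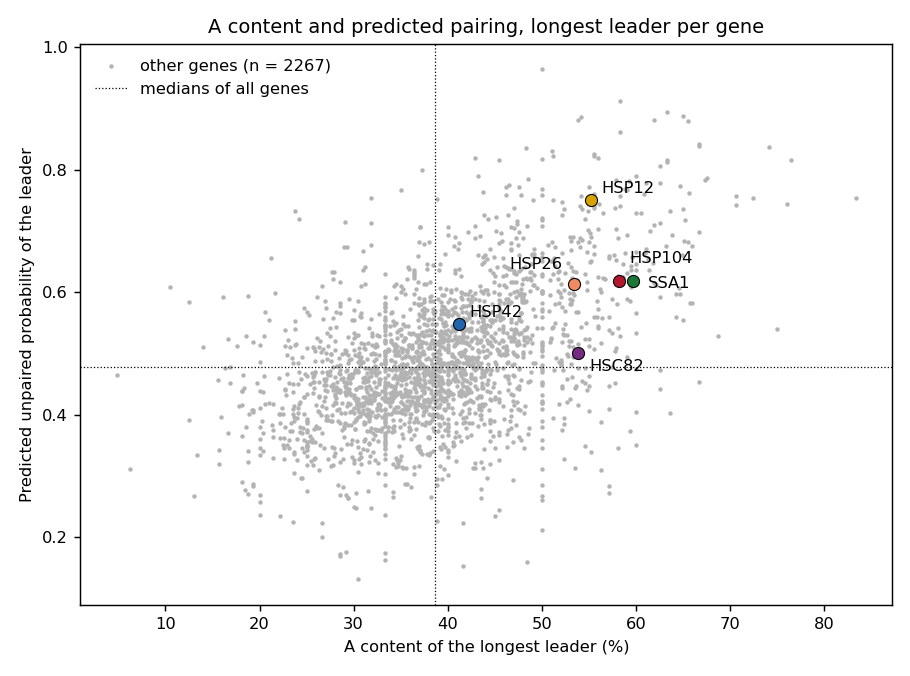
A content of the longest leader of each gene (x axis, %) against its predicted unpaired probability at 30 °C (y axis), with 2267 other genes in grey and the 6 genes in colour. Of the 6 genes, 5 lie beyond 50% A, HSP12 is the most open of the 6 at 0.750, and HSC82 lies near the median line at 0.502.

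Each complete RNA of 182 nt was folded in silico at 30 °C, the temperature of the refolded libraries, and the unpaired probability of a base is 1 minus the sum of its predicted pair probabilities. The 6 leaders were predicted to be open to very different degrees. HSP12 was the most open, with 0.832 for its 37-nt and 0.750 for its 58-nt leader. HSP104, HSP26 and SSA1 were alike, with 0.618, 0.614 and 0.619. HSP42 had 0.578 and 0.548 for the shorter and longer leader, and HSC82 had 0.502. Averaged per gene, the median of the 6 was 0.616 against 0.481 for all genes, the mean was 0.618 ± 0.0965 (SD, n = 6), and each of the 6 exceeded the median gene. At least 0.6 was reached by the longest leaders of HSP104, HSP26, HSP12 and SSA1, which is 4 of 6, against 14.6% of all genes.

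A content and openness moved together over the 2273 genes, so the 6 genes are also set beside genes of like A content. Across 2273 genes Pearson's r between A content and unpaired probability of the longest leader was 0.515 and Spearman's rho 0.482. The points share 1 folding model, and genes are not independent replicates. The 255 other genes with 50 to 60% A had a median of 0.582, with quartiles of 0.488 and 0.660. In this range HSP12 (0.750) lay above the upper quartile, HSP104, HSP26 and SSA1 lay between the median and the upper quartile, and HSC82 lay below the median. HSP42 (0.548) lay within the quartiles of 0.455 and 0.572 of the 674 other genes with 40 to 50% A. When each leader was folded without the rest of its RNA, the difference between the medians of the 6 genes and of all genes fell to 0.0564, and SSA1 lay at -0.039 from the median of all genes. Its own value was 0.623 when folded alone, against 0.619 in the complete RNA, while the median of all genes rose from 0.481 to 0.662.

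**Figure D2:**
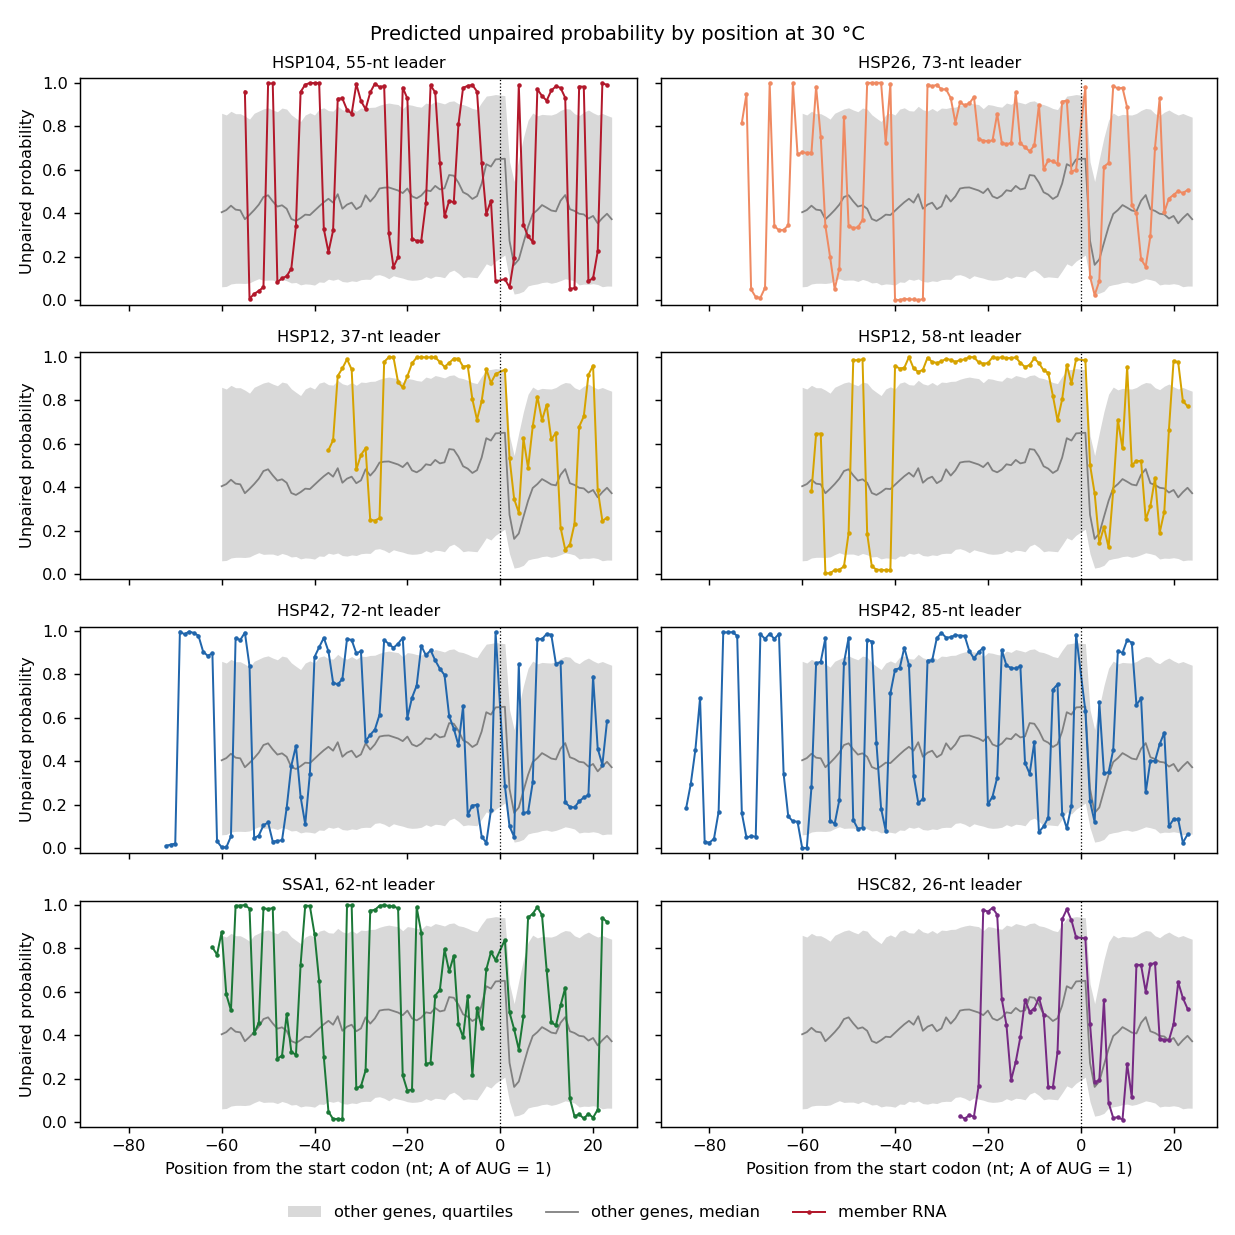
Predicted unpaired probability at 30 °C (y axis) at each position from the start codon (x axis, nt, A of AUG at 1) for the 8 RNAs, with the median and quartiles of the other genes in grey. The 58-nt HSP12 leader lies between 0.708 and 0.999 in the 40 nt before the start codon, and HSP26 has an open stretch of 33 nt before the start codon.

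HSP12 and HSP26 had long open stretches that reached the start codon. Counting consecutive leader bases with an unpaired probability of at least 0.5, the 58-nt leader of HSP12 had a run of 40 nt, longer than in all but 2 of the 2267 other genes. The value at these 40 positions was between 0.708 and 0.999. The HSP26 run was 33 nt and began with its run of 6 A, and 11 other genes had a longer run. The runs of HSP42 (85 nt), HSP104, SSA1 and HSC82 were 13, 11, 9 and 5 nt, against a median of 8 nt over all genes. In the last 10 nt before the start codon the mean unpaired probability was 0.899 in HSP12 (58 nt), 0.715 in HSP26 and 0.675 in HSP104. It was 0.593 in HSC82, 0.560 in SSA1 and 0.372 in HSP42 (85 nt), and the last of these was higher in 1730 of the 2267 other genes.

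With a window of 10 nt around the start codon, 4 of the 6 genes were open and the others lay nearer the median of all genes. Over the start codon and its 10 neighbours to either side, the unpaired probability was 0.674 in HSP12 (58 nt), 0.641 in HSP104, 0.628 in HSP26 and 0.617 in SSA1. It was 0.503 in HSP42 (85 nt) and 0.441 in HSC82, against a median of 0.476 over all genes. At least 0.6 was reached by 4 of 6, against 13.9% of all genes. The difference between the median of the 6 genes and that of all genes, 0.147, fell to 0.0882 with a window of 5 nt and to 0.0915 without the 5′ GGG and the constant 3′ stretch of the pool RNAs. The place of HSP104 depended on the window. With 5 nt it had 0.443, below HSC82 (0.492), HSP42 (85 nt, 0.453) and the median of all genes (0.468).

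HSP104 had the lowest unpaired probability of the 6 genes at the start codon itself, although its leader was open. The mean over the A, U and G of the start codon was 0.117, lower than in 1912 of the 2267 other genes, whereas HSP12 (58 nt) had 0.620, SSA1 0.591, HSC82 0.494, HSP26 0.372 and HSP42 (85 nt) 0.323. The median over all genes was 0.406. The stem joined the base before the start codon and the start codon to 4 bases in the leader, 19 to 16 nt before it. The stretch from -19 to 3 is shown because it holds this stem, with the paired bases in capitals.
HSP104 start codon hairpin: CATAaaatatacagaataTATG
The mean pair probability of its 4 pairs was 0.667 at 30 °C and 0.5 at 42 °C, so this stem was predicted for part of the molecules only. It does not hold all of the pairing of the start codon, whose unpaired probability was 0.117 at 30 °C. The A of the start codon had an unpaired probability of 0.0977 in HSP104, against 0.984 in HSP12 (58 nt), 0.982 in HSP26 and a median of 0.651 in the other genes. In HSP26 the U and the G of the start codon were predicted to be mostly paired, with 0.109 and 0.0241, against 0.0598 and 0.193 in HSP104.

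The paired bases of the leaders had different partners from gene to gene. In SSA1 and the 85-nt leader of HSP42 most of the pairing was within the leader, with 31.1% and 33.4% of the leader bases, against a median of 17.5% over all genes. In HSC82 and HSP104 it was mostly with the coding part, with 32.2% and 27.4%, against a median of 17.0%. HSC82 held 8 stacked pairs between the 5′ end, from -29 to -22 with the GGG included, and positions 68 to 75 of the coding part, with a mean pair probability of 0.873. HSP104 paired its 5′ end with positions 41 to 55 of the coding part in 3 stems, of which the first is formed by the GGG alone, with a mean pair probability of 0.952. The other stems, formed by leader bases, had 0.952 and 0.827. Since coding sequence beyond the insert is missing from the pool, these partners may not be those of the full message.

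Some of the pairs involved the constant 3′ stretch, which does not come from the gene, or the last 12 nt of the insert, which can differ from it. Whether these 12 nt match the gene was not checked. In HSP26, 7 stacked pairs joined positions -40 to -34 to the constant 3′ stretch, with a mean pair probability of 0.992 at 30 °C and 0.965 at 42 °C. This stem ends next to the run of A and accounts for most of the 9.64% of its leader bases paired with the constant stretch. The 72-nt leader of HSP42 had 13.9% of its bases paired with the constant stretch and 12.4% with the last 12 nt of the insert, against 1.94% and 0.000467% in its 85-nt leader. With the 5′ GGG and the constant stretch left out, the unpaired probability rose from 0.502 to 0.645 in HSC82 and from 0.618 to 0.727 in HSP104, and it fell from 0.619 to 0.608 in SSA1. Averaged per gene it rose from 0.614 to 0.645 in HSP26, from 0.563 to 0.602 in HSP42 and from 0.791 to 0.816 in HSP12, and the median of all genes rose from 0.481 to 0.526.

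**Figure D3:**
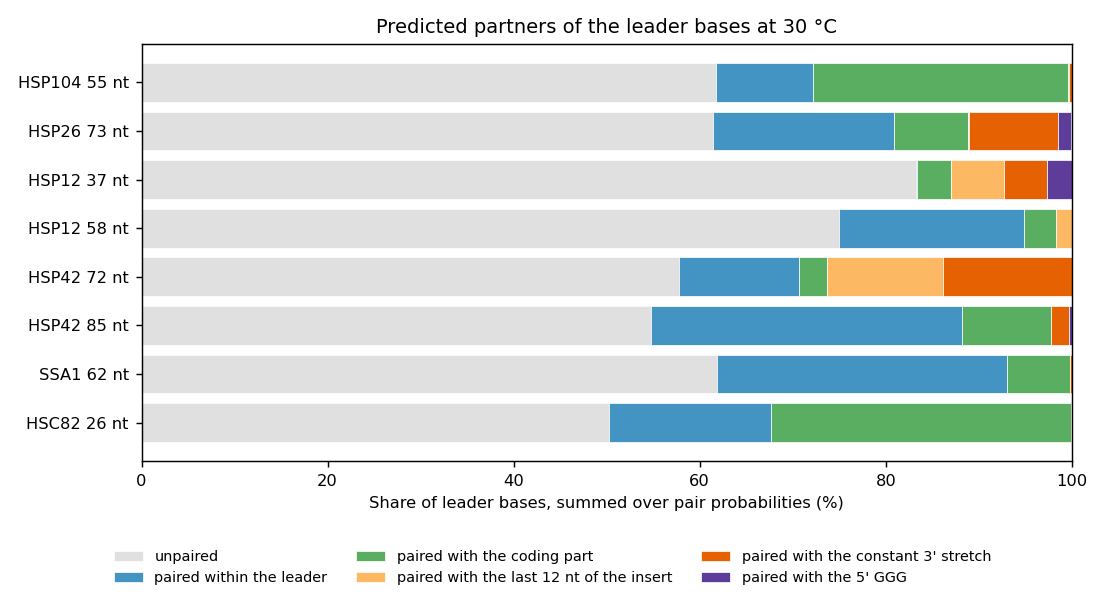
Share of leader bases (x axis, %) that were predicted to be unpaired or paired with each part of the RNA at 30 °C, for the 8 RNAs. HSP104 and HSC82 pair mostly with the coding part, which here includes the start codon. SSA1 and the 85-nt HSP42 leader pair mostly within the leader, and the 72-nt HSP42 leader with bases from outside the gene's leader.

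For HSP12 and HSP42, the longer leader adds a small hairpin near the 5′ end. The 58-nt leader of HSP12 ends with its whole 37-nt leader and adds 21 nt in front, with 28.6% A. The 85-nt leader of HSP42 adds 13 nt to its 72-nt leader, with 53.8% A. In both cases the added bases take part in a stem of A, U and few G or C. These hairpins, and a less stable one of the same kind in SSA1, are shown with the paired bases in capitals.
HSP12, 58 nt, -55 to -41: GATTATtcgATAATC
HSP42, 85 nt, -81 to -70: GTATaattATAC
SSA1, -48 to -34: GTAATcaagtATTAC
The HSP12 hairpin had 6 stacked pairs with a mean pair probability of 0.946 and the HSP42 hairpin 4 with 0.907. The SSA1 hairpin had 5 stacked pairs with 0.471. A hairpin inside the leader with at least 4 stacked pairs and a mean pair probability of at least 0.9 was present in the longest leader of 14.2% of all genes, and in 2 of the 6. This limit was set after the hairpins had been seen.

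The shared bases behaved differently in the pair of leaders of each gene. In HSP12 the added part had an unpaired probability of 0.384, whereas the 37 shared bases rose to 0.958 in the longer RNA from 0.832 in the shorter. The first 10 of them had 0.684 in the shorter and 0.972 in the longer RNA. In HSP42 the added part had 0.462 and the shared bases 0.563, against 0.578 in the shorter RNA. Within each pair the RNAs also differed in the last 11 nt of the insert, and their part in the difference was not tested. Among 1192 genes with more than 1 leader, the longest was less open than the shortest in 48.5%, so a fall with length, as in HSP12 and HSP42, was about as common as a rise.

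Folding at higher temperature, as a heat shock would bring, opened the longest leaders of 5 of the 6 genes by more than the median gain of all genes, and that of HSP12 by less. The unpaired probability of the HSP26 leader was 0.614 at 30 °C, 0.668 at 37 °C and 0.695 at 42 °C. HSP104 went from 0.618 to 0.684, SSA1 from 0.619 to 0.684, HSC82 from 0.502 to 0.558 and HSP42 (85 nt) from 0.548 to 0.599 between 30 and 42 °C. The gain of 0.0807 in HSP26 was higher than in 95.2% of the other genes, that of 0.0656 in HSP104 higher than in 89.9%, and that of 0.0646 in SSA1 higher than in 89.3%. HSC82 gained 0.0567, more than 83.9% of the other genes, and HSP42 gained 0.0513, more than 78.5%. The median gain over all genes was 0.0337. The gain was not set beside that of genes of like A or GC content. In the further chaperone and stress genes described below, averaged per gene, it ran from 0.00402 to 0.0965. A high gain is therefore not particular to the 6 genes. HSP12, already the most open, gained 0.0222 in its 58-nt leader and fell by 0.0171 in its 37-nt leader. In the latter, pairing with the last 12 nt of the insert went from 5.69% to 8.20% of the leader bases and pairing with the constant stretch from 4.62% to 6.47%.

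The HSP26 gain lay both at its 5′ end and before the start codon. The 5′ hairpin of HSP26 consists of 2 stems, and the stretch that holds them is shown with the outer stem in capitals. The pair probability of both stems was lower at 42 °C, as it was for most stems of the other genes, so the fall does not set this hairpin apart.
HSP26, -71 to -47: GATAaagatatatcagatctcTATT
The mean pair probability of the outer stem was 0.650 at 30 °C and 0.393 at 42 °C, and that of the inner stem 0.663 and 0.438. These falls do not mean that all of the hairpin bases became unpaired. The bases from -71 to -68 stayed mostly paired at 42 °C, with unpaired probabilities of 0.158, 0.106, 0.105 and 0.198. Those from -61 to -58 became less open, as from 0.671 to 0.541 at -61. Their partners at -50 to -47 opened, as from 0.340 to 0.569 at -50. Around the start codon HSP26 rose from 0.628 to 0.709, a gain of 0.0804 that was higher than in 92.5% of the other genes. The other 5 genes gained between 0.0316 and 0.0404 in this window in their longest leaders, close to the median of 0.0324 over all genes. The HSP42 hairpin went from 0.907 to 0.742 and that of HSP12 from 0.946 to 0.805. The model knows no proteins or salt of the cell, so these are properties of the sequences.

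**Figure D4:**
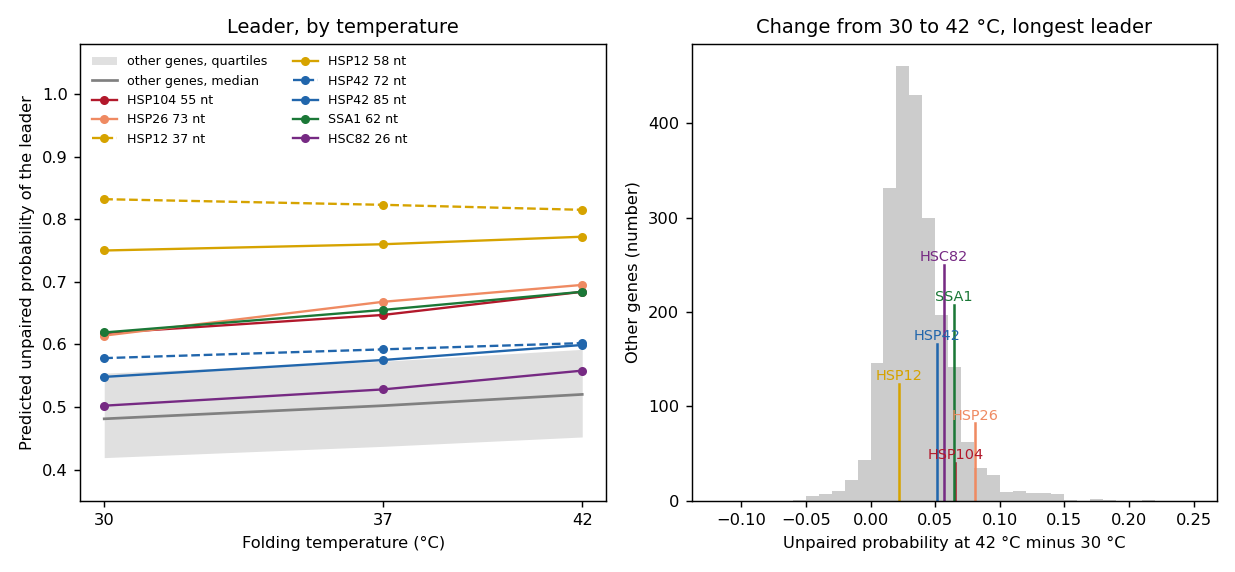
Left, predicted unpaired probability of the 8 leaders (y axis) at 30, 37 and 42 °C (x axis), with the median and quartiles of the other genes in grey and the shorter leader of HSP12 and HSP42 dashed. Right, the change from 30 to 42 °C in the longest leader (x axis) of the other genes (grey, number on the y axis) with the 6 genes as lines, whose heights carry no value: HSP26 has the largest of the 6 changes (0.0807) and HSP12 the smallest (0.0222).

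The coding part was less open than the leader in each of the 8 RNAs, which was also so in 64.8% of all genes with the longest leader of each. The coding part was read from the first base after the start codon to 12 nt before the end of the insert. Its unpaired probability was 0.508 in HSP26, 0.494 in HSP104, 0.411 in SSA1 and 0.355 in HSC82. It was 0.449 in the longer HSP12 and 0.465 in the longer HSP42 RNA, and the median over all genes was 0.441. HSC82 lay low, with 8.87% of the other genes below it. HSP42 carried an in-frame stop codon at codon 11 in both of its RNAs. There the letters agt, written in lower case in place of an out-of-frame ATG, complete a TAG in the reading frame. Such a stop overlapping a replaced ATG was present in the longest-leader RNA of 30.5% of all genes and in no other of the 6. Neither HSP12 nor HSP104 held an agt in its coding part, SSA1 and HSP26 held 1 and HSC82 held 2.

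The nearest leaders to these genes were mostly not those of chaperones. The lists described below hold only 38 further chaperone and stress genes of the 2273 ranked. Nearest genes from outside the lists are therefore no sign that these leaders differ from those of chaperones. Likeness was the distance over length, A, U and GC content and unpaired probability of the leader and around the start codon, each divided by its SD over 2273 genes. HSP104 and SSA1 were each other's nearest gene, at 0.749 SD, followed by UBA1 for HSP104 and PCL1 for SSA1. HSP26 was nearest to RTC3 (0.475) and DDI1 (0.599), and HSP12 to IST3 (0.758) and CWP1 (0.805). HSP42 was nearest to PSP2 (0.443) and ORC1 (0.449), and HSC82 to RPL10 (0.745), a ribosomal protein gene, and MDV1 (0.769). HSP104, HSP26, HSP12 and SSA1 lay 0.749 to 1.47 from each other. HSP42 and HSC82 lay further off: HSP42 lay 2.22 to 3.48 from the other 5, and HSC82 2.43 to 3.48. The usual distance between genes of the pool was not computed, so these values do not show that HSP42 or HSC82 was unusual.

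Other chaperone and stress genes of the pool lay around the median of all genes in A content and openness. Of 75 further genes in 5 lists, 38 had a wild-type RNA in the table with a leader of at least 10 nt. Absence of the others is no sign of a short leader, because the table ends within an RNA. Of the 38, 22 lay above the median of all genes in A content and 21 in unpaired probability. Among 11 cytosolic chaperones and cochaperones, 6 lay above the median in unpaired probability. They ran from 0.365 in SSB1, a ribosome-associated Hsp70 gene, to 0.601 in STI1, which encodes a cochaperone joining Hsp70 and Hsp90. Among 11 chaperonin and prefoldin genes, 9 lay above the median in A content and 6 in unpaired probability, from 0.226 in GIM4 to 0.599 in GIM5, both prefoldin subunits. The 6 genes of folding in the endoplasmic reticulum ran from 0.382 in KAR2, the Hsp70 of that compartment, to 0.584 in EUG1, a protein disulphide isomerase gene, with 3 above the median. Of 3 mitochondrial chaperone genes, ECM10 had the lowest value of 0.439 and SSQ1 the highest of 0.589, both mitochondrial Hsp70 genes. The 7 other stress genes ran from 0.460 in DDR2 to 0.693 in HSP150, a secreted heat shock protein of the cell wall, with 4 above the median. HSP150 was the only one of the 38 above the median of 0.616 of the 6 genes.

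**Figure D5:**
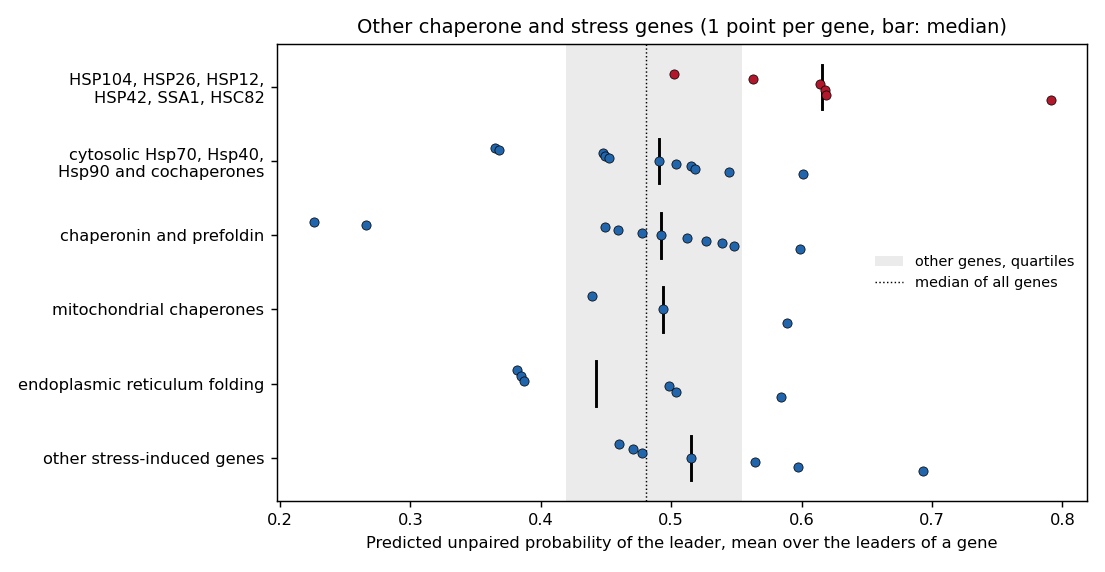
Predicted unpaired probability of the leader at 30 °C (x axis), 1 point per gene with the leaders of a gene averaged, for the 6 genes and 5 lists of other chaperone and stress genes (y axis), with bars at the medians. The median of the 6 genes is 0.616, and the medians of the lists lie between 0.443 and 0.515, around the median of 0.481 of all genes.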

How the data were processed

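The authors deposited 1 table for the series with 1 row for each position of each pool RNA. The submitters' processing notes name STAR and SAMtools, with no version or role. A genome build is not given in the sources used here. Only the columns with the RNA name and the reference base, a letter, were used. The 6 columns named as coverage and mutation rates were left out, because their names give no condition. The planned values of mutation rate and coverage could therefore not be computed.

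The leader was read from the base after the 5′ GGG to the lower-case atg, which each of the 4383 complete wild-type RNAs held once. The table ends within an RNA at 1048575 rows, so it does not hold the complete pool. All medians and shares given here refer to the RNAs it holds. Of the 4383 complete wild-type RNAs, 4165 belong to genes on the Watson strand and 218 to the Crick strand. The background is therefore mostly Watson-strand genes, and SSA1 is the 1 member on the Crick strand. Gene names came from the RefSeq table of assembly R64, by locus tag (2702 of 2779 genes, 6 of 6 members), and none of its coordinates was used.

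RNAs were folded with ViennaRNA 2.7.2 with default energy parameters at 30, 37 and 42 °C. Leaders under 10 nt were left out, which left 2273 genes, and several leaders of 1 gene were averaged for medians and lists, while shares and ranks used the longest leader. The folding code was tested on made-up hairpins with known pairs. The genes named are the 6 members, the 2 nearest genes to each, and the highest and lowest gene of each list. The members, lists and motifs were chosen with earlier results of these data known. Alternatives were the longest or shortest leader of a gene, leaders of at least 20 nt, Watson-strand genes alone, other temperatures, RNAs without their constant ends, the leader alone and a window of 5 nt.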

Additional observations from a re-analysis of the deposited data

How the results depend on the processing

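The differences between the medians of the 6 genes and of all genes in length, A, U and GC content and in predicted unpaired probability of the leader and around the start codon were recomputed under 32 planned combinations of result and setting, and all 32 kept their direction and moved by less than 1 SD of the 6 genes. The difference in A content lay between 15.3 and 17.4 percentage points and that in leader unpaired probability between 0.0564, with the leader folded alone, and 0.164, at 42 °C. Of 24 single-gene differences from the median of all genes, 21 moved by less than that SD. SSA1 turned from 0.138 above to -0.039 with each leader folded alone: its own value was 0.619 and 0.623, while the median of all genes rose from 0.481 to 0.662. HSP104 moved from 0.137 to 0.285 with the leader alone, and HSC82 from 0.0203 to 0.119 without the constant ends. No paired analysis was possible because no column of values could be assigned to a sample. Precision is limited by the energy model, whose error was not estimated, and depth per library was not analysed here.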
